A study of Rattus norvegicus with 30 samples.

Results

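The time course described here follows rat hepatocytes after a high dose of WY-14643, also called pirinixic acid. It sets 48 h of exposure to 200 µM against 24 h of exposure to the same dose. The samples were taken by their labelled agent, concentration and time: 5 arrays of 200 µM wells at 48 h and 5 arrays of 200 µM wells at 24 h, 10 of the 30 arrays of the series. Both groups were frozen primary hepatocytes of male Sprague Dawley rats, bought from a supplier, thawed, cultured in collagen-coated wells under Matrigel, and dosed once, on day 3 of culture. Each array holds the RNA of 1 well. The wells are labelled as independent cultures, and the labels do not say whether their cells came from different animals, so each p-value below measures the spread between wells. The other 20 arrays are 5 wells each of 8 µM and of vehicle (1% DMSO) at the same 2 times. The DMSO content of the dosed wells cannot be settled from the labels. Wells at 48 h had also been in culture for longer than wells at 24 h, so duration of exposure and age of the culture cannot be told apart within the 200 µM wells. The vehicle and 8 µM wells, which aged by the same interval, enter only where the time difference at 200 µM is tested against theirs.

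PPARα is a nuclear receptor of the liver that binds fatty acids and synthetic peroxisome proliferators such as WY-14643. As a pair with the retinoid receptor RXR it sits at direct repeat elements near genes for the uptake, activation and oxidation of fatty acids, and in rats and mice lasting activation makes peroxisomes multiply. Hepatocytes kept in culture lose part of their liver program over days, the cytochromes P450 of drug metabolism among the first.

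The values are MAS5 signals of an Affymetrix rat array, tested as log2(signal + 16). On the 10 arrays median signals ran from 385 to 434. The median correlation of an array with the others of its group lay between 0.967 and 0.975. The array of 48 h vehicle replicate 4 stood apart, with a median signal of 765 against 385 to 439 on the other 29 arrays, and it enters the vehicle means and medians below. Each gene named as different from vehicle in its time difference passed the threshold with and without this array. Only 9 genes, named near the end, had a time difference at 200 µM that was called different from that at 8 µM. The other differences from vehicle were not told apart from 8 µM. The 3′ over 5′ ratio for β-actin probes was 3.10 ± 0.201 in the 48 h wells, against 3.31 ± 0.169 in the 24 h wells (SD, n = 5 each; exact permutation test, two-sided, p = 0.103, 0.226 adjusted over 3 ratios). Hepatocyte markers were present at both times, with albumin at 65707 ± 4616 in the 48 h wells and 73936 ± 5831 in the 24 h wells.

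Of 11545 genes tested, 1821 (15.8%) changed between 48 h and 24 h of 200 µM, 988 (8.56%) of them higher and 833 (7.22%) lower at 48 h (limma, Benjamini-Hochberg adjusted p below 0.05). The changes were mostly small. The median size of the log2 difference over all genes was 0.14. Of the changed genes, 349 (3.02% of those tested) differed by at least 1.5-fold and 127 (1.1%) by at least 2-fold. The 5 arrays at 48 h lay wholly above or wholly below the 5 arrays at 24 h for 1533 genes (13.3%), above for 824 (7.14%) and below for 709 (6.14%). The counts of each list below are to be set against these shares of 8.56% higher and 7.22% lower over all genes. Genes of sterol synthesis, lipogenesis and fatty acid uptake were called higher more often than lower. Genes of plasma proteins, complement, coagulation and drug metabolism were called lower more often than higher, and several classical PPARα targets were not called. Small differences varied with brightness: the 113 genes with a mean signal above 50000 had a median log2 difference of -0.13, against 0.0027 over all genes. The same genes had a median of -0.13 in vehicle wells and -0.03 at 8 µM. Of these 113 genes 36 were called lower and 2 higher at 200 µM. Of 444 genes at 20000 to 50000, 109 were lower and 41 higher, and of 4933 below 1000, 98 were lower and 154 higher. The share of falls over all genes is therefore not that of bright genes. Quantile normalization removes a shift with brightness. Values after it are given for some of the bright genes and lists whose reading it changes.

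**Figure D1:**
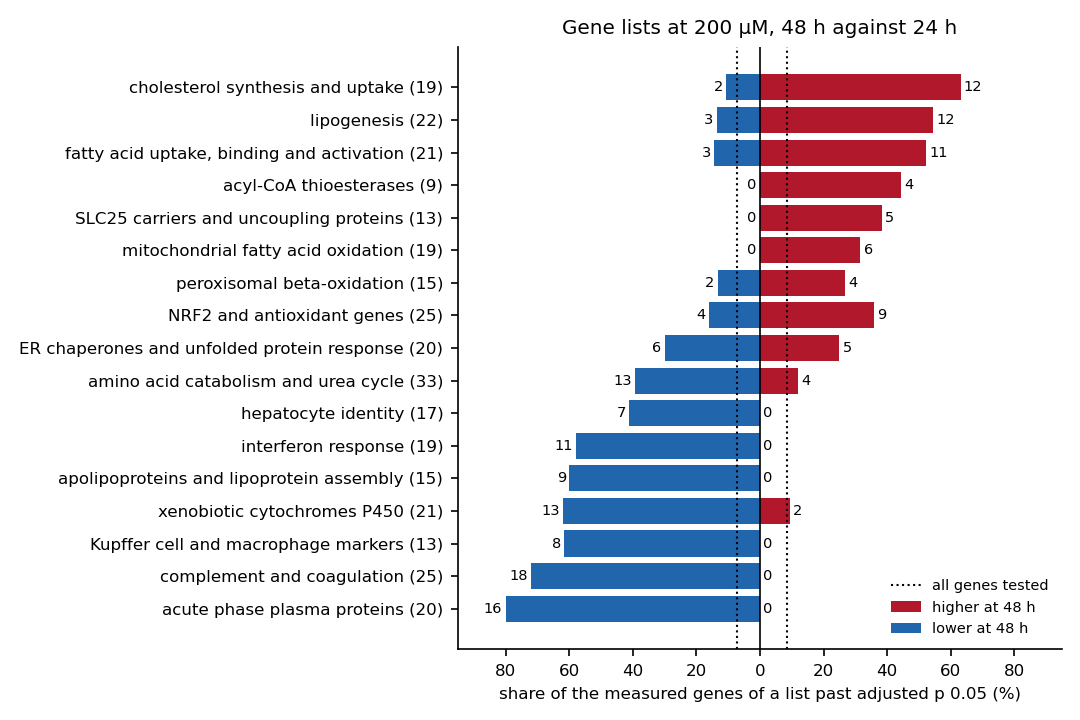
Share of the measured genes of each list that was higher (red, right) or lower (blue, left) at 48 h than at 24 h of 200 µM, with the number of genes at the end of each bar and the number measured in brackets; the horizontal axis is in percent and the dotted lines mark all genes tested. Of 20 acute phase genes 16 were lower and 0 higher, and of 19 cholesterol genes 12 were higher and 2 lower.

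The genes by which PPARα activation is usually read in rat liver already stood above 24 h vehicle wells after 24 h, by log2 differences from 0.60 for Plin2 to 8.69 for Acot1, and of the 10 tested 3 rose further, 1 fell and 6 were not called on their brightest probe set. Cyp4a1, the fatty acid omega-hydroxylase, had signals of 74863, 75317, 74372, 74926 and 66144 in the 48 h wells, against 70956, 67117, 81788, 66100.4 and 71070.2 in the 24 h wells. The groups overlapped, and the log2 difference was 0.04 ± 0.06 (SE; adjusted p = 0.726). Vehicle wells averaged 8275 at 48 h and 4911 at 24 h, so both 200 µM groups were far above them. Acot1, a cytosolic acyl-CoA thioesterase, had 53491, 56746, 54512, 54643 and 51385 in the 48 h wells, against 48109, 51439, 53835, 46327 and 48204 in the 24 h wells, an overlapping pair of groups with a log2 difference of 0.13 ± 0.04 (adjusted p = 0.0614). In vehicle wells Acot1 averaged 456 at 48 h and 112 at 24 h. After quantile normalization the differences were 0.18 for Cyp4a1 (adjusted p = 0.00641) and 0.25 for Acot1 (adjusted p = 5.04e-05), both past the threshold. For these 2 very bright genes a small rise thus depends on the scaling. How far signals this bright can still rise on the array was not tested.

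Of the other targets, Cpt1a, the gatekeeper of fatty acid entry into mitochondria, averaged 11125 ± 971 at 48 h, against 12391 ± 379 at 24 h. Pdk4, the kinase that shuts off pyruvate dehydrogenase, averaged 49174 ± 2430.0 at 48 h, against 52709 ± 1870.0 at 24 h. The secreted fasting hormone Fgf21 averaged 3202 ± 235 at 48 h, against 3531 ± 508 at 24 h, and the lipoprotein lipase inhibitor Angptl4 31588 ± 1274 at 48 h, against 33373 ± 1350.0 at 24 h (SD, n = 5 each). Their log2 differences were -0.16, -0.10, -0.13 and -0.08, and none passed the test (adjusted p = 0.0624, 0.117, 0.369 and 0.221). Another Pdk4 probe set was lower (-0.33, adjusted p = 0.00546), as was the mean of both (-0.22, adjusted p = 0.00365), while quantile normalization of the brightest one gave 0.02. Plin2, the coat protein of lipid droplets, was lower by a margin just past the threshold (log2 difference -0.16 ± 0.05, SE; adjusted p = 0.0462), and after quantile normalization it was not called (-0.03, adjusted p = 0.454). Another Plin2 probe set fell by 0.64 (adjusted p = 2.22e-07), and the mean of both by 0.40. Ppara itself was under the signal filter, with mean signals of 118 at 48 h and 94.4 at 24 h.

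Ehhadh, Cd36 and Fabp1 did go on rising. Ehhadh, the bifunctional enzyme that carries β-oxidation on inside peroxisomes, had 36574, 33737, 34973, 33224 and 43414 in the 48 h wells, against 23753, 24486, 26084, 24229 and 27480.0 in the 24 h wells. Every 48 h well was above every 24 h well (log2 difference 0.52 ± 0.07, SE; adjusted p = 4.27e-05). Cd36, the fatty acid translocase of the plasma membrane, had 13923, 13043, 15740.2, 16626 and 17839 in the 48 h wells, against 5773, 7019, 6522, 6680.3 and 7208 in the 24 h wells. It was 2.31-fold higher, with no overlap between the groups (log2 difference 1.21 ± 0.08, SE; adjusted p = 3.92e-08). The time difference of Cd36 was 1.43 in vehicle wells and 1.45 at 8 µM, and the difference of time differences against vehicle was -0.22 ± 0.18 (adjusted p = 0.641).

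Fabp1, the liver fatty acid binding protein, had 66800.5, 63065, 60704, 56339 and 63950.4 in the 48 h wells, against 35222, 41524, 42437, 32411 and 41448 in the 24 h wells. The groups did not overlap (log2 difference 0.69 ± 0.07, SE; adjusted p = 4.56e-06). In vehicle wells it moved the other way, with 6945 at 48 h and 11329 at 24 h. The time difference at 200 µM exceeded that of vehicle by 1.41 ± 0.12 on the log2 scale (SE; adjusted p = 2.27e-09), and by 1.32 (adjusted p = 6.40e-11) without 48 h vehicle replicate 4. Its promoter is printed because it was the only one of 18 promoters of the fatty acid uptake list with a match to the direct repeat AGGNCA, 1 base, AGGNCA (N is any base), a form of the PPARα element. On both strands that pattern was found in 139 of 33469 RefSeq promoters (0.415%). It was in 0 of 15 promoters of mitochondrial oxidation genes, 0 of 14 of peroxisomal oxidation genes and 0 of 9 of thioesterases. A match carries no statement on binding, and a part of the element in the rise of Fabp1 was not tested. The match, in capitals, starts at position -77 from the gene start and reads on the opposite strand. The window runs from 250 bases before to 50 bases after the start (RefSeq, build GRCr8, chr4:104749090-104749389, + strand).
Fabp1: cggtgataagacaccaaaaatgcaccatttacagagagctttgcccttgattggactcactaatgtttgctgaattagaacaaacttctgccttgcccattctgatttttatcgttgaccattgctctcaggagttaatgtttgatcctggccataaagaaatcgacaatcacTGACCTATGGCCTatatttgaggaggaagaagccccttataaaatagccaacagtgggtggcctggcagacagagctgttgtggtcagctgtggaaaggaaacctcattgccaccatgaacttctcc

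**Figure D2:**
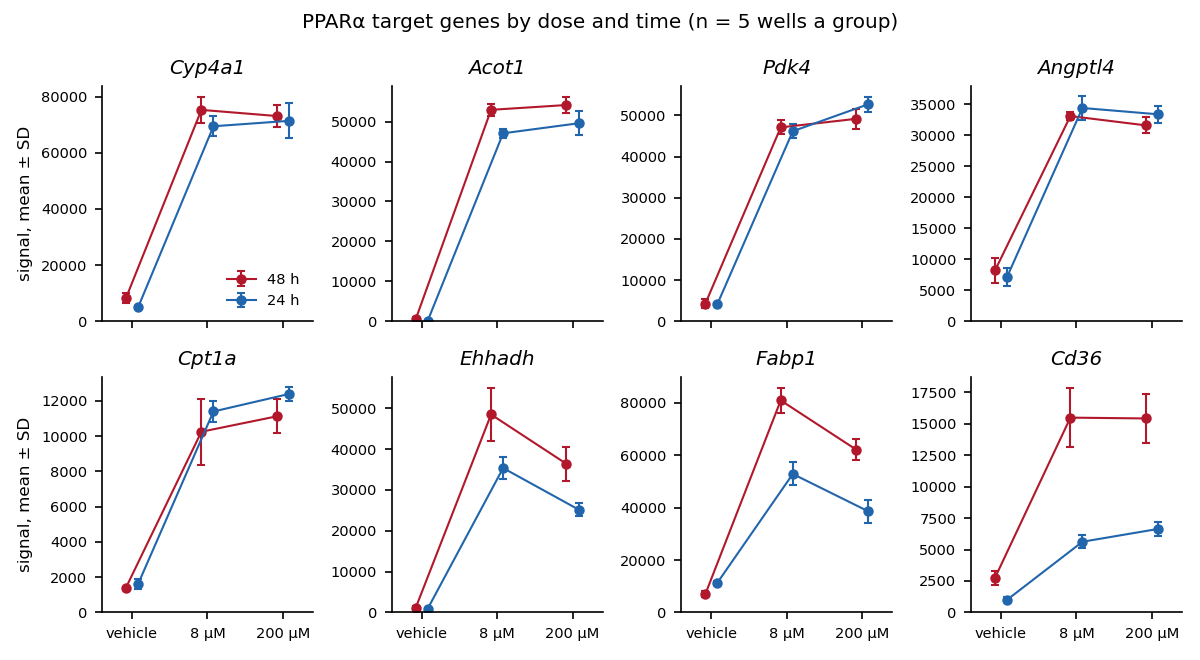
Mean signal (vertical axis, linear, from 0; bars are SD, n = 5 wells) of 8 PPARα target genes in vehicle, 8 µM and 200 µM wells at 48 h (red) and 24 h (blue). Cyp4a1, Acot1, Pdk4, Angptl4 and Cpt1a stand near the same level at both times of 200 µM, and Ehhadh, Fabp1 and Cd36 stand higher at 48 h.

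The shares over all genes were 8.56% higher and 7.22% lower. Of 19 measured genes that oxidize fatty acids in mitochondria, 6 rose and 0 fell, with a median log2 difference of 0.08. Cpt1b, the muscle form of the carnitine acyltransferase, rose most, to 10558 at 48 h against 6248 at 24 h (log2 difference 0.75 ± 0.09, SE; adjusted p = 2.20e-05). Acadm, the medium-chain acyl-CoA dehydrogenase, rose by 0.35. After quantile normalization 13 of the 19 rose. Hadha, the α subunit of the trifunctional protein, rose by 0.20 on its brightest probe set, and another probe set of it fell, so its direction is uncertain. Of 15 measured enzymes that oxidize fatty acids in peroxisomes 4 rose and 2 fell, and after quantile normalization 7 rose and 1 fell. Crat, carnitine acetyltransferase, averaged 12216 at 48 h against 8330.4 at 24 h (log2 difference 0.55 ± 0.06, SE; adjusted p = 1.83e-05), and Phyh, the α-oxidation enzyme phytanoyl-CoA hydroxylase, fell by 0.15. Phyh lost its call after quantile normalization. Of 16 peroxins and other peroxisomal proteins 3 rose and 0 fell, among them Pex19, the import receptor of peroxisomal membrane proteins (0.28). Pex7, another of the 3, held its call in 9 of 23 alternative settings (adjusted p up to 0.118). Of 9 acyl-CoA thioesterases 4 rose and 0 fell, with differences from 0.18 for Acot4 to 0.31 for Acot9. Of 10 Cyp4 hydroxylases 0 rose and 2 fell, Cyp4f1 (-0.32) and Cyp4a3 (-0.12); after quantile normalization the Cyp4a3 difference was 0.0011.

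The largest rise on the brightest probe set of a gene was that of Scd2, a stearoyl-CoA desaturase that puts the first double bond into saturated fatty acids. Its signals were 3925, 3342, 3695, 4251 and 3785 in the 48 h wells, against 510.4, 409, 540.5, 530.2 and 651 in the 24 h wells. The groups lay far apart, 7.06-fold in the mean log2 signal (log2 difference 2.82 ± 0.11, SE; adjusted p = 6.16e-11). This was the brightest of its probe sets. The other 2 were not called, at 0.24 and 0.88 (adjusted p = 0.339 and 0.0608), and the mean of the probe sets rose by 1.31, so the size of the rise is uncertain. Scd, the abundant liver form named Scd1 in mice, fell slightly: it averaged 53649 ± 1630.0 at 48 h, against 61325 ± 3493 at 24 h (log2 difference -0.19 ± 0.04, SE; adjusted p = 0.00496). The desaturases of polyunsaturated fatty acids rose with Scd2. Fads1, the Δ5 desaturase, had 7052, 5722, 6595, 8032 and 9173 in the 48 h wells, against 2046, 2201, 2007, 2086 and 2022 in the 24 h wells. All 48 h wells were above all 24 h wells (log2 difference 1.79 ± 0.10, SE; adjusted p = 3.44e-09). Fads2, the Δ6 desaturase, averaged 2811 ± 289 at 48 h, against 1284 ± 453 at 24 h (log2 difference 1.18 ± 0.18, SE; adjusted p = 2.10e-04).

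Of 22 lipogenesis genes 12 rose and 3 fell, with a median of 0.20. Fasn, fatty acid synthase, rose to 3238 at 48 h, against 2129.6 at 24 h (log2 difference 0.61 ± 0.10, SE; adjusted p = 5.75e-04). Me1, the malic enzyme that supplies NADPH, and Thrsp, the thyroid hormone responsive spot 14 protein, rose by 0.39 and 0.42. Acaca and Acly, which make malonyl-CoA and cytosolic acetyl-CoA, did not pass the test (-0.11 and 0.08). Pnpla3, a lipid droplet acyltransferase and lipase, had 1131, 1289, 1768, 1560.2 and 1518 in the 48 h wells, against 335, 458, 636, 614 and 504 in the 24 h wells. Its groups did not overlap (log2 difference 1.5 ± 0.17, SE; adjusted p = 1.09e-05), and of 2 other probe sets 1 rose (1.61) and 1 was not called (0.44, adjusted p = 0.425). The rises of Scd2, Fads1, Fads2, Thrsp and Pnpla3 were larger at 200 µM than in vehicle wells, by 1.25 ± 0.18, 0.76 ± 0.18, 1.27 ± 0.32, 0.72 ± 0.11 and 1.11 ± 0.21 on the log2 scale (SE; adjusted p = 2.51e-05, 0.0151, 0.0225, 6.04e-05 and 0.00156). In the mean of its probe sets the Scd2 difference was 0.57 and did not pass (adjusted p = 0.205). The Fads2 difference did not pass with the 20 arrays of the contrast alone or without 24 h replicate 1 of 200 µM, where the highest adjusted p was 0.074.

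Genes of cholesterol synthesis rose. Of 19 measured genes of sterol synthesis and uptake 12 rose and 2 fell, with a median of 0.30 against 0.0027 over all genes. Sqle, squalene epoxidase, had 7920.0, 6507, 5535, 7133 and 5524 in the 48 h wells, against 3679.8, 3758, 3018, 3482 and 5361 in the 24 h wells. Its groups did not overlap (log2 difference 0.77 ± 0.13, SE; adjusted p = 7.14e-04). Dhcr7, the last enzyme of the pathway, averaged 14417 ± 885 at 48 h, against 10316 ± 545 at 24 h (log2 difference 0.48 ± 0.05, SE; adjusted p = 7.56e-06). Msmo1, a sterol C4 demethylase, rose by 0.48, Idi1, the isopentenyl diphosphate isomerase, by 0.41, and Insig1, which holds SREBP in the endoplasmic reticulum, by 0.40. Ebp and Tm7sf2, a sterol isomerase and a sterol reductase, fell (-0.29 and -0.33). The medians of the list were also above 0 in the other wells, with values of 0.43 at 8 µM and 0.16 in vehicle wells. Its lowest adjusted p for a difference between the time differences of 200 µM and vehicle was 0.0787, for the sterol reductase Hsd17b7 (0.43 ± 0.13). The sterol element TCACNCCAC, searched on both strands, was in none of 15 promoters of the list and in 374 of 33469 promoters (1.117%).

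Genes for fatty acid uptake, binding and activation rose more often than they fell, 11 against 3 of 21, with a median of 0.15. Fabp3, the fatty acid binding protein of heart and muscle, had 11141, 11629.6, 10628, 11829.5 and 10176 in the 48 h wells, against 3565, 2997, 3189.8, 3095 and 3482 in the 24 h wells. It was 3.38-fold higher and the groups did not overlap (log2 difference 1.76 ± 0.06, SE; adjusted p = 2.37e-11). Acsm2, a medium-chain acyl-CoA synthetase, averaged 4918 ± 629 at 48 h, against 1809 ± 182 at 24 h (log2 difference 1.43 ± 0.09, SE; adjusted p = 1.26e-08). Acsl3, the long-chain acyl-CoA synthetase of lipid droplets, rose by 0.64 and Lpl, lipoprotein lipase, by 0.84. Fabp4, the fatty acid binding protein of adipocytes and macrophages, fell to 835 at 48 h, against 1656 at 24 h (log2 difference -0.98 ± 0.11, SE; adjusted p = 9.15e-06). Fabp7, the brain form, fell by 0.56, and Fabp5 did not pass (-0.09).

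Among lipid droplet genes 7 of 20 rose and 5 fell, against 8.56% higher and 7.22% lower over all genes. Abhd5, the activator of adipose triglyceride lipase, rose to 6888 at 48 h, against 4028 at 24 h (log2 difference 0.77 ± 0.06, SE; adjusted p = 2.26e-07). Lipe, hormone-sensitive lipase, fell (log2 difference -0.85 ± 0.13, SE; adjusted p = 2.67e-04). The lipase Pnpla2 averaged 11234 at 48 h against 11812 at 24 h and was not called. The glycerol channels Aqp3 and Aqp7 rose. Aqp3 had 6472, 5311, 6043, 5722 and 9639 in the 48 h wells, against 1995, 2387, 2640.0, 2375 and 2489 in the 24 h wells. The 48 h wells were all above the 24 h wells, with 1 of them well over the other 4 (log2 difference 1.45 ± 0.13, SE; adjusted p = 9.28e-07). Aqp7 averaged 10787 ± 444 at 48 h, against 4871 ± 198 at 24 h (log2 difference 1.14 ± 0.05, SE; adjusted p = 1.41e-10). The kinase Gk and the dehydrogenase Gpd1, which take glycerol further, fell by 0.23 and 0.18. After quantile normalization Gk was still called and Gpd1 was not. Among 13 mitochondrial carriers 5 rose and 0 fell. Slc25a4, a muscle form of the ADP/ATP carrier, rose by 0.76, and Ucp2, an uncoupling protein, by 0.87. Ketogenesis and fasting genes were split, 3 of 13 higher and 3 lower; Vnn1, the pantetheinase vanin 1 and a known PPARα target in mice, rose to 23825 at 48 h, against 13355 at 24 h (log2 difference 0.83 ± 0.04, SE; adjusted p = 2.88e-09), with a time difference of 0.88 in vehicle wells.

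**Figure D3:**
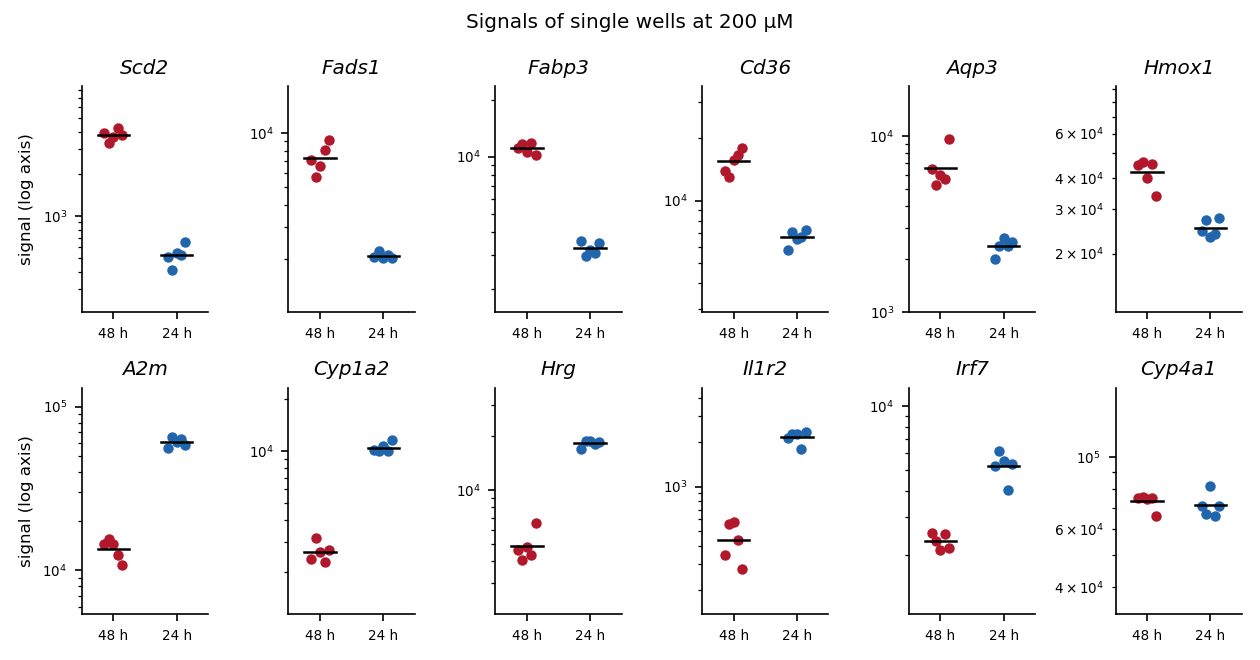
Signal (vertical axes, log scale, a range of its own for each gene) of the 5 wells at 48 h (red, left) and the 5 wells at 24 h (blue, right) of 200 µM for 12 genes; each point is 1 well and the bar is the mean. The groups are apart for 11 of the genes and overlap for Cyp4a1. Scd2, Fads1, Fabp3, A2m, Cyp1a2, Hrg and Il1r2 were named by a rule that required groups apart.

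Genes of secreted liver proteins fell. Of 20 acute phase genes 16 fell and 0 rose (median -0.48), and of 25 complement and coagulation genes 18 fell and 0 rose (median -0.46). A2m, the protease inhibitor α2-macroglobulin, had 14544, 15516, 14581, 12392 and 10844 in the 48 h wells, against 55771, 65449.9, 61161, 63121 and 57975 in the 24 h wells. All 48 h wells were far below all 24 h wells (log2 difference -2.17 ± 0.08, SE; adjusted p = 6.16e-11). Vehicle wells stayed high, at 59736 at 48 h and 76718 at 24 h. Serpina3n, an acute phase serpin, averaged 22020.0 ± 2109 at 48 h, against 50122 ± 3363 at 24 h (log2 difference -1.19 ± 0.06, SE; adjusted p = 2.37e-09). Ahsg, the carrier protein fetuin A, averaged 33476 ± 2214 at 48 h, against 59023 ± 3105 at 24 h (log2 difference -0.82 ± 0.05, SE; adjusted p = 1.18e-08). The fibrinogen chains Fga, Fgb and Fgg fell by 0.65, 0.71 and 0.31. Crp did not pass, with a value in the other direction (0.30 ± 0.14, adjusted p = 0.176).

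Hrg, histidine-rich glycoprotein, had 4591, 4036, 4795, 4317 and 6571 in the 48 h wells, against 17090.1, 18816, 18732, 18246 and 18674 in the 24 h wells. The groups did not overlap (log2 difference -1.93 ± 0.10, SE; adjusted p = 1.59e-09). C3, the central complement protein, averaged 14173 ± 686 at 48 h, against 27858 ± 2160.0 at 24 h (log2 difference -0.97 ± 0.05, SE; adjusted p = 4.37e-09). C9, of the membrane attack complex, and Plg, plasminogen, fell by 1.18 and 0.88. Prothrombin (F2) averaged 55561 at 48 h against 55886 at 24 h and was not called (-0.01, adjusted p = 0.928). Serpina6, the corticosteroid-binding globulin, had 896, 977, 853, 897 and 1027 in the 48 h wells, against 4915, 5006, 5367, 4607 and 5266 in the 24 h wells, a fall with no overlap (log2 difference -2.42 ± 0.07, SE; adjusted p = 3.78e-12). Car3, the liver and muscle carbonic anhydrase, averaged 1234 ± 143 at 48 h, against 5276 ± 532 at 24 h (log2 difference -2.08 ± 0.09, SE; adjusted p = 1.52e-10). Vtn, the adhesive plasma protein vitronectin, averaged 19119 ± 589 at 48 h, against 42114 ± 1384 at 24 h (log2 difference -1.14 ± 0.04, SE; adjusted p = 1.40e-11).

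The falls of A2m, Hrg, Ahsg, Serpina3n and Vtn were larger at 200 µM than in vehicle wells. The time differences were -2.17, -1.93, -0.82, -1.19 and -1.14 at 200 µM and -0.37, -0.62, -0.09, -0.38 and -0.36 in vehicle wells. The adjusted p of the difference was 2.27e-09, 2.03e-06, 1.06e-04, 6.09e-06 and 6.15e-06. At 8 µM the same genes had time differences of -2.02, -2.10, -0.99, -1.05 and -1.05, none of them different from 200 µM at an adjusted p below 0.05. Serpina6 fell by 2.42 at 200 µM and 2.45 in vehicle wells, a difference of 0.03 ± 0.15 (adjusted p = 0.964).

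Of 15 apolipoproteins and lipoprotein genes 9 fell and 0 rose, with a median of -0.22. Apoa5, which promotes clearance of triglyceride-rich lipoproteins, had 3350.0, 3385, 3699.9, 3663 and 3312 in the 48 h wells, against 7291, 7387, 7961, 6532 and 7249.7 in the 24 h wells. Its groups did not overlap (log2 difference -1.06 ± 0.06, SE; adjusted p = 4.37e-09), and the time difference was below that of vehicle by 1.24 ± 0.12 (adjusted p = 1.70e-08). Apoa2, a protein of HDL, averaged 19279 ± 1141 at 48 h, against 45843 ± 4468 at 24 h (log2 difference -1.25 ± 0.06, SE; adjusted p = 1.55e-09), and its time difference in vehicle wells was -1.24. Apoc4 and Lcat, the enzyme that esterifies plasma cholesterol, fell by 1.00 and 1.44. Apob and Mttp, which build the lipoprotein particle, had differences of -0.01 and -0.01 and did not pass.

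Drug-metabolizing cytochromes P450 fell, 13 of 21 lower and 2 higher (median -0.45). Cyp1a2, the main hepatic oxidase of caffeine, had 2392, 3139, 2606, 2307 and 2696 in the 48 h wells, against 10109.6, 10001, 10604, 9936 and 11573 in the 24 h wells. The groups were apart (log2 difference -1.99 ± 0.08, SE; adjusted p = 6.16e-11). Cyp2c13, a male-specific form in rats, averaged 3192 ± 165 at 48 h, against 15172 ± 713 at 24 h (log2 difference -2.24 ± 0.05, SE; adjusted p = 2.54e-13). Cyp2c12 (-1.90), Cyp2c7 (-1.88) and Cyp3a2 (-1.81) fell nearly as far. The rat Cyp2c genes are close paralogs, and how far their probe sets read one another was not tested. Cyp1a1, an aryl hydrocarbon receptor target, was 1 of the 2 that rose (log2 difference 0.29 ± 0.05, SE; adjusted p = 0.00126). Cyp2e1 had -0.10 and did not pass. The list was lower with time in the other wells as well, with a median of -0.59 at 8 µM and -0.57 in vehicle wells. Cyp2c11, Cyp1a2 and Cyp2b3 had time differences below those of vehicle (200 µM minus vehicle -1.05 ± 0.21, -0.90 ± 0.11 and -0.63 ± 0.14, adjusted p = 0.00284, 4.12e-06 and 0.012). Cyp2e1 and Cyp2c6v1 had time differences above those of vehicle, by 0.67 ± 0.17 and 0.42 ± 0.11 (adjusted p = 0.0215 and 0.029).

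Of 17 hepatocyte identity genes 7 fell and 0 rose, with a median of -0.17, and their summed signal ran from 282790 to 298630 at 48 h, against 319130 to 348130 at 24 h. Albumin was not called (-0.17 ± 0.06, adjusted p = 0.0623). Hnf4a, a master regulator of the hepatocyte, fell by 0.35, and 2 other probe sets of it did not pass. Afm, the albumin family protein afamin, fell to 3767 at 48 h, against 9395 at 24 h (log2 difference -1.32 ± 0.06, SE; adjusted p = 1.63e-10). Of 33 amino acid catabolism and urea cycle genes 13 fell and 4 rose, and after quantile normalization 9 fell and 4 rose. Tdo2, which opens the tryptophan ring, fell by 0.52, while Oat, ornithine aminotransferase, rose (log2 difference 0.71 ± 0.08, SE; adjusted p = 1.86e-05). Of 25 antioxidant genes 9 rose and 4 fell, and after quantile normalization 12 rose and 1 fell. Hmox1, heme oxygenase 1, had 45139, 46330.1, 40029, 45438 and 33916 in the 48 h wells, against 24655, 27272, 23359, 24005 and 27594 in the 24 h wells. No 48 h well was as low as any 24 h well (log2 difference 0.73 ± 0.08, SE; adjusted p = 7.55e-06). Gsta3, a glutathione transferase, rose by 0.78 and Gclc, which limits glutathione synthesis, by 0.40.

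Of 19 interferon-stimulated genes 11 fell and 0 rose, with a median of -0.29. Irf7, the transcription factor that amplifies type I interferon, had 2541, 2321, 2106, 2517 and 2159.9 in the 48 h wells, against 5219.6, 6129.7, 5524, 4024 and 5335 in the 24 h wells. Its groups did not overlap (log2 difference -1.16 ± 0.10, SE; adjusted p = 4.20e-07). Usp18, which removes the ubiquitin-like tag Isg15, averaged 2756 ± 491 at 48 h, against 6062 ± 1158 at 24 h (log2 difference -1.13 ± 0.13, SE; adjusted p = 1.58e-05). Isg15 itself fell by 1.06, Ifit3, an inhibitor of foreign RNA, by 0.96, Mx2 by 0.86, Oas1a, an oligoadenylate synthetase, by 0.80 and Rsad2, viperin, by 0.74. Stat2, Irf1 and the immunoproteasome subunits Psmb8 and Psmb9 were not called (0.07, 0.10, 0.07 and 0.08). The list had a median of -0.30 at 8 µM and -0.24 in vehicle wells. Its lowest adjusted p for a difference between the time differences of 200 µM and vehicle was 0.117, for Ifit2 (-0.47 ± 0.15).

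The promoters of 4 of the fallen genes are printed to show a pattern that they share, a form of the interferon-stimulated response element. The pattern GAAA, any 2 bases, GAAA was searched on both strands, where its reverse complement reads TTTC, 2 bases, TTTC. It was in 9 of 15 promoters of the list (60.0%), among them 3 of genes that were not called (Ifi44, Psmb8 and Tap1), and in 1312 of 33469 RefSeq promoters (3.92%). The motif was chosen after the falls had been seen, and matches carry no statement on binding. Capitals mark the matches in windows from 250 bases before to 50 bases after the gene start (RefSeq, GRCr8). Irf7 lies at chr1:205799974-205800273, - strand, with a match at -69. Ifit3 lies at chr1:241527076-241527375, + strand, with a match at -44. Oas1a lies at chr12:41330216-41330515, + strand, with 2 overlapping matches at -41 and -35. Rsad2 lies at chr6:48788071-48788370, - strand, with a match at -147.
Irf7: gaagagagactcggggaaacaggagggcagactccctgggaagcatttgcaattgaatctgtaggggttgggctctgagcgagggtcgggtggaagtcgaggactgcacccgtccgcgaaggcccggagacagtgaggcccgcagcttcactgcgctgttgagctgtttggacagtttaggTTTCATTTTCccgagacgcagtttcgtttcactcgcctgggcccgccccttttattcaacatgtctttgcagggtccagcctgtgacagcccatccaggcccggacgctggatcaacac
Ifit3: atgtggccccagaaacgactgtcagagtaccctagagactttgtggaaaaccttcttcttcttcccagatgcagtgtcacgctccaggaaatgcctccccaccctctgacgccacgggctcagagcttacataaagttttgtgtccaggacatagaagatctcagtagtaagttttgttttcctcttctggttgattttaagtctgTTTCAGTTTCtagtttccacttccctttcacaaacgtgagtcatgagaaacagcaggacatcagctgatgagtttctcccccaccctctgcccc
Oas1a: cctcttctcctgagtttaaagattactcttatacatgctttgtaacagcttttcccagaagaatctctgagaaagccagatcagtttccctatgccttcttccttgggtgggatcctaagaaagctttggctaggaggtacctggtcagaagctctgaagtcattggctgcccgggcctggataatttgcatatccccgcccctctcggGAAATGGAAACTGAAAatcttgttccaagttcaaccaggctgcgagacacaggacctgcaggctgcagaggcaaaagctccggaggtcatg
Rsad2: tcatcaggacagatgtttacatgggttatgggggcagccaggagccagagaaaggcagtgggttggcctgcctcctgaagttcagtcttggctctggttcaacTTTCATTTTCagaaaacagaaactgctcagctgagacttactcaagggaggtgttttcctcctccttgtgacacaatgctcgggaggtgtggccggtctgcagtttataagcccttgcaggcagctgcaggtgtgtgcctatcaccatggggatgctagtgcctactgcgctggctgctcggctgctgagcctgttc

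Markers of macrophages fell beside them. Of 13 measured Kupffer cell and macrophage markers 8 were lower and 0 higher, with a median of -0.48. The summed signal of all 16 with a probe set ran from 20449 to 22531 in the 48 h wells, against 27625 to 31098 in the 24 h wells. The groups did not overlap. That sum includes Adgre1, Itgam and Ptprc, which were under the signal filter. C1qb, a chain of complement C1q made by macrophages, had 76.4, 40.1, 68.1, 155 and 98.4 in the 48 h wells, against 521, 543, 709.6, 449 and 435 in the 24 h wells. All its 48 h signals were below the filter level of 281.361 (log2 difference -2.48 ± 0.31, SE; adjusted p = 4.31e-05). Clec4f, a lectin of Kupffer cells, averaged 399 ± 123 at 48 h, against 782 ± 140.4 at 24 h (log2 difference -0.97 ± 0.20, SE; adjusted p = 0.00273). Cd74, the invariant chain of class II antigen presentation, had 79.4, 82.3, 58.7, 78.2 and 95.6 in the 48 h wells, against 191, 493, 337, 377 and 364 in the 24 h wells, again without overlap (log2 difference -1.91 ± 0.33, SE; adjusted p = 7.00e-04). Il1rn, the interleukin 1 receptor antagonist, had 389.6, 273, 240.5, 429 and 136 in the 48 h wells, against 1969.6, 2278, 2629.5, 1791 and 2641 in the 24 h wells, the largest fall of all genes (log2 difference -2.96 ± 0.23, SE; adjusted p = 2.38e-07). Slfn4, a Schlafen gene of myeloid cells in mice, averaged 52.7 ± 28.4 at 48 h, against 488 ± 102 at 24 h (log2 difference -2.94 ± 0.34, SE; adjusted p = 1.89e-05). Another Slfn4 probe set was not called (0.32, adjusted p = 0.759), and the mean of both fell by 1.31. The 48 h mean of Slfn4 and all 48 h signals of Cd74 were below the filter level, and those of Il1rn lay on both sides of it. The sizes of these falls therefore rest on low values. In RNA of whole wells fewer cells of a type and less RNA per cell cannot be told apart, and the part of macrophages in the falls of interferon, complement and interleukin genes was not tested. In vehicle wells Il1rn also fell with time, by 2.41 and C1qb by 1.51.

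For the other cell types the counts were small, and the shares over all genes were 8.56% higher and 7.22% lower. Among them 3 of 10 endothelial markers fell and 1 rose. Lyve1, of liver sinusoids and lymphatics, averaged 285 at 48 h against 624 at 24 h (log2 difference -1.08 ± 0.16, SE; adjusted p = 1.87e-04; another probe set was not called). The summed signal of all 15 endothelial markers with a probe set, filter or not, was 4771.9 to 6155.8 at 48 h, against 5659.2 to 7844 at 24 h. Of 11 stellate cell and fibroblast markers 1 rose, Acta2, the smooth muscle actin (log2 difference 0.59 ± 0.15, SE; adjusted p = 0.0144), and 0 fell. Of 7 cholangiocyte markers 1 rose, the epithelial adhesion molecule Epcam (log2 difference 0.52 ± 0.05, SE; adjusted p = 2.48e-06), while Krt19 was not called at a low signal (102 at 48 h against 147 at 24 h). Of 6 lymphocyte markers Cd3g came nearest to the threshold (log2 difference -0.85 ± 0.44, SE; adjusted p = 0.222).

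Il1r2, the decoy receptor of interleukin 1, fell at 200 µM and not in vehicle wells. It had 347, 557, 578, 436 and 276 in the 48 h wells, against 2140.4, 2258, 2274, 1794 and 2337 in the 24 h wells. The groups did not overlap (log2 difference -2.30 ± 0.17, SE; adjusted p = 1.17e-07). Vehicle wells averaged 5024 at 48 h and 4551 at 24 h, and the difference of time differences was -2.42 ± 0.24 (adjusted p = 4.00e-08). Npy, neuropeptide Y, had 1125, 1434, 1526, 1463 and 1189 in the 48 h wells, against 3879, 4133, 3953, 3479 and 4188 in the 24 h wells, with no overlap (log2 difference -1.54 ± 0.09, SE; adjusted p = 7.29e-09). Its vehicle means were 14234 at 48 h and 9174 at 24 h, a difference of time differences of -2.17 ± 0.12 (adjusted p = 1.07e-14). S100a6, a calcium-binding protein, averaged 5137 ± 826 at 48 h, against 12381 ± 1004 at 24 h (log2 difference -1.28 ± 0.09, SE; adjusted p = 1.05e-07). Ccn2, the matricellular connective tissue growth factor, fell to 956 at 48 h, against 1557 at 24 h, while vehicle wells had 17635 and 11935 at these times (difference of time differences -1.27 ± 0.14, adjusted p = 4.18e-07).

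Several of the largest rises belong to none of these groups. Tsx averaged 1187 ± 217 at 48 h, against 219 ± 52.7 at 24 h (log2 difference 2.37 ± 0.17, SE; adjusted p = 1.19e-07), and Eri3, an exoribonuclease family member, 1009.8 ± 182 at 48 h, against 285 ± 194 at 24 h (log2 difference 1.98 ± 0.33, SE; adjusted p = 5.63e-04). Acta1, the α-actin of skeletal muscle, had 3255, 3163, 3925, 3693 and 2714 in the 48 h wells, against 896, 967, 802, 1069 and 733 in the 24 h wells. Its groups did not overlap (log2 difference 1.89 ± 0.11, SE; adjusted p = 1.04e-08). Myl2, a myosin light chain of heart and slow muscle, rose by 1.57, and Map1b, a microtubule protein of neurons, by 1.70. Krtcap3, Cttnbp2, Snap91, Prss23 and Scamp5 rose by 1.91, 1.69, 1.66, 1.58 and 1.5. At 24 h the mean of Tsx and the highest well of Krtcap3 (119) were below the filter level of 281.361. The sizes of these rises rest on low values, and that of Krtcap3 ran from 1.44 to 2.15 over the settings. Tgfb2, a transforming growth factor, averaged 993 at 48 h against 384 at 24 h (log2 difference 1.49 ± 0.31, SE; adjusted p = 0.00348), with a time difference of 2.37 in vehicle wells; the mean of its probe sets did not pass (0.59, adjusted p = 0.172). Among the falls, Gstp3, a glutathione transferase, averaged 175 ± 79.8 at 48 h, against 1328 ± 196 at 24 h (log2 difference -2.90 ± 0.24, SE; adjusted p = 3.56e-07). That 48 h mean was below the filter level. Serpina3c fell by 2.00 and the keratin gene Krt25 by 1.88. Krt25 did not pass in the fit of all 30 arrays or without 24 h replicate 2 of 200 µM.

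Chaperones of the endoplasmic reticulum moved in both directions, 5 of 20 higher and 6 lower. Sdf2l1, a cofactor of the chaperone BiP, had 5829, 5279, 5663, 7009.8 and 9207 in the 48 h wells, against 3887, 4436, 4336, 3526 and 4574 in the 24 h wells. The groups did not overlap (log2 difference 0.64 ± 0.12, SE; adjusted p = 0.00193). Dnajc3, Calr, Pdia3 and Pdia6 rose by 0.28, 0.25, 0.24 and 0.23. Hspa5, which is BiP itself, fell by 0.24, Xbp1, a transcription factor of the unfolded protein response, by 0.61, and Creld2 and Manf by 0.50 and 0.45. Ddit3, the stress factor CHOP, averaged 6453 ± 1451 at 48 h, against 4792 ± 603 at 24 h and just missed the threshold (log2 difference 0.40 ± 0.13, SE; adjusted p = 0.0518). Of 26 genes of the integrated stress response and serine synthesis 4 rose and 5 fell, of 13 heat shock genes 1 rose and 1 fell, and of 21 p53 and apoptosis genes 2 rose and 1 fell. With 8.56% higher and 7.22% lower over all genes, the heat shock and p53 counts were near the shares of all genes.

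Of 31 measured cell cycle genes 1 rose (Cdk4, 0.29) and 2 fell (Cdkn1a, the p21 inhibitor, -0.33, and Myc, -0.28), against 8.56% higher and 7.22% lower over all genes. Cdk4 and Myc were near the threshold and lost their calls in several settings (adjusted p up to 0.142 and 0.131). Pcna, the replication clamp, averaged 10844 at 48 h against 10037 at 24 h (adjusted p = 0.195) and Top2a, a marker of dividing cells, 204 at 48 h against 296 at 24 h (adjusted p = 0.175). Among the other lists, 5 of 20 iron genes rose and 3 fell. Hamp, the iron hormone hepcidin, averaged 4610.3 ± 902 at 48 h, against 7504 ± 1023 at 24 h (log2 difference -0.71 ± 0.12, SE; adjusted p = 5.85e-04), and Slc40a1, the iron exporter that hepcidin binds, 17898 ± 1330.0 at 48 h, against 12884 ± 485 at 24 h (log2 difference 0.47 ± 0.05, SE; adjusted p = 1.24e-05). Of 18 clock genes 3 rose and 1 fell. Dbp, a clock output factor, had 769.5, 806, 623, 557 and 522 in the 48 h wells, against 187, 310.4, 226, 355 and 306 in the 24 h wells. The groups did not overlap (log2 difference 1.21 ± 0.20, SE; adjusted p = 5.01e-04). Of 25 nuclear receptors and coregulators 1 fell, the bile acid receptor Nr1h4 (-0.27), and 0 rose. Of 20 bile acid genes 1 rose, the conjugating enzyme Baat (0.43), and 4 fell, among them the bile acid importer Slc10a1 (-0.44). Ghr, the growth hormone receptor, fell (log2 difference -0.73 ± 0.08, SE; adjusted p = 1.08e-05) on its brightest probe set, and another probe set of it did not pass (-0.07).

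Over all genes 8.56% rose and 7.22% fell, and several of the counts that follow are near those shares. Of 24 inflammatory genes 5 fell and 0 rose, and of 16 growth hormone and IGF genes 2 rose and 1 fell. Of 23 respiratory chain or citrate cycle genes 3 rose and 0 fell. Of 26 autophagy and lysosome genes 6 rose and 2 fell, with Ctsd, the lysosomal protease cathepsin D, at 0.28 and Ctsb, cathepsin B, at -0.23. Of 26 proteasome subunits 1 rose and 3 fell. Of 18 ribosomal proteins 3 fell and 0 rose, and after quantile normalization none was called. Of 24 immediate early genes 1 rose and 5 fell, among them Jun (-0.43, with 2 other probe sets not called) and Dusp6, a phosphatase that limits ERK (-0.72). Of 19 glycolysis and gluconeogenesis genes 1 rose and 5 fell, with the liver pyruvate kinase Pklr at -0.60 (not past the threshold in the mean of its probe sets, adjusted p = 0.0579), Pck1, the cytosolic PEP carboxykinase, at -0.39, and Pfkfb3, an activator of glycolysis, at 0.55. Of 23 conjugation enzymes 5 rose and 6 fell, and after quantile normalization 5 rose and 1 fell. Of 22 genes of dedifferentiation, cytoskeleton and matrix 6 rose and 4 fell, and after quantile normalization 10 rose and 4 fell. Anxa3, annexin A3, rose by 0.68 on its brightest probe set, with 1 other also higher (1.38) and 2 not called (0.12 and 0.22), and Fn1, fibronectin, fell by 0.66.

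Most genes that changed with time at 200 µM moved the same way in wells that had received less or no compound. These comparisons share no arrays. Of the 988 genes that rose at 200 µM, 962 (97.37%) had a positive time difference at 8 µM and 739 (74.8%) in vehicle wells. Over all genes tested the share above 0 was 49.11% at 8 µM and 53.49% in vehicle wells. Of the 833 that fell, 802 (96.28%) had a negative one at 8 µM and 720 (86.43%) in vehicle wells. Without 48 h vehicle replicate 4 these shares in vehicle wells were 82.29% and 80.79%. Sizes were closer at 8 µM than in vehicle wells. The genes that rose had a median of 0.13 in vehicle wells, of 0.32 at 8 µM and of 0.35 at 200 µM. Those that fell had -0.19 in vehicle wells, -0.28 at 8 µM and -0.33 at 200 µM. Without 48 h vehicle replicate 4 the vehicle medians were 0.17 and -0.13. Across the 1821 changed genes the correlation of the 200 µM time difference was 0.905 with that of 8 µM and 0.707 with that of vehicle. Across all 11545 genes it was 0.616 with 8 µM and 0.371 with vehicle. Without 48 h vehicle replicate 4 the values for vehicle were 0.708 and 0.394. These correlations are across genes, whose probe sets share sequence and brightness between the arrays, and genes are not independent replicates. The changed genes were picked by their 200 µM values, which favours larger sizes at 200 µM than in the other wells. Their correlations are for that reason not comparable with those over all genes.

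**Figure D4:**
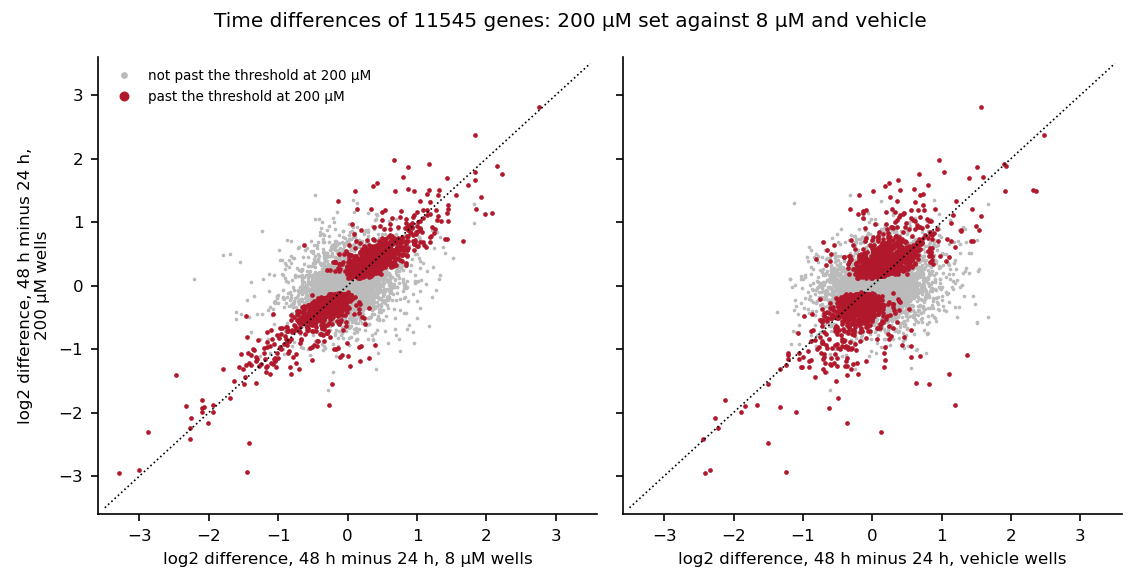
Log2 difference of 48 h minus 24 h at 200 µM (vertical axes) against the same difference at 8 µM (left) and in vehicle wells (right); each point is 1 of 11545 genes, those past the threshold at 200 µM are red, and the dotted line marks equal values. The red points lie closer to the line at 8 µM, where their correlation is 0.905, than in vehicle wells, where it is 0.707.

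The time difference at 200 µM departed from that of vehicle for 278 genes (2.41%), higher for 150 (1.3%) and lower for 128 (1.11%). Without 48 h vehicle replicate 4 these were 220 higher and 268 lower. Among the 150, 117 rose at 200 µM, of which 83 had a negative value in vehicle wells. Among the 128, 86 fell at 200 µM, of which 40 had a positive value in vehicle wells. Dbp, Fabp1, Fads2, Scd2 and Spc24, a kinetochore protein, led on the high side. The Dbp call held in 21 of 32 alternative settings; it was lost after quantile normalization, after median centring, with the 20 arrays alone and without each of 8 single arrays (adjusted p up to 0.222). Spc24 averaged 6386 ± 828 at 48 h, against 4732 ± 231 at 24 h. Its vehicle means were 1170.3 at 48 h and 2070.3 at 24 h (difference of time differences 1.23 ± 0.16, adjusted p = 4.12e-06). Against 8 µM the time difference of Spc24 was not called. Bcl2l15, Pdzk1ip1, Il1r2, Npy and Poll led on the low side. Of these Bcl2l15, Pdzk1ip1 and Poll were dim, with 24 h means at 200 µM of 340.4, 277 and 346. The Poll call held in 18 of 32 settings and was lost without each of 11 single arrays, among others (adjusted p up to 0.255). That of Bcl2l15 held in 27 of 32, with losses after median centring and without each of 4 arrays (adjusted p up to 0.133). Eno2, the neuronal enolase, Gldc, which breaks down glycine, and Slc30a10, a manganese exporter, also rose more than in vehicle, by 1.14 ± 0.26, 1.01 ± 0.15 and 1.00 ± 0.12.

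For some genes vehicle wells rose with time and the 200 µM wells were not called. Cryab, the small heat shock protein αB-crystallin, averaged 3939.8 ± 558 at 48 h, against 3957 ± 133 at 24 h (log2 difference -0.02, adjusted p = 0.922). Its vehicle means were 13314 at 48 h and 5454 at 24 h (difference of time differences -1.29 ± 0.17, adjusted p = 7.89e-06). Cav1, the coat protein of caveolae, averaged 474 ± 91.7 at 48 h, against 489 ± 114 at 24 h, with vehicle means of 2011 at 48 h and 907 at 24 h (difference -1.18 ± 0.24, adjusted p = 0.00349). Cyp4a1 was also in this set: its vehicle signal rose by 0.73 (difference -0.69 ± 0.13, adjusted p = 0.00105).

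Against 8 µM the time difference at 200 µM departed for 9 genes (0.078%), 7 higher (0.0606%) and 2 lower (0.0173%). A count this low does not show that the doses act alike. 4 of the 7 higher genes are chaperones or foldases of the endoplasmic reticulum. Sdf2l1 had a time difference of -0.55 in vehicle wells, -0.63 at 8 µM and 0.64 at 200 µM (200 µM minus 8 µM 1.27 ± 0.14, adjusted p = 5.35e-06). Calr, calreticulin, Pdia3, a disulfide isomerase, and Dnajc3, an inhibitor of the kinase PERK, exceeded 8 µM by 0.55 ± 0.10, 0.50 ± 0.09 and 0.42 ± 0.09 (adjusted p = 0.0146, 0.0125 and 0.0316). All 4 had a positive time difference at 200 µM and a negative one at 8 µM and in vehicle wells. Cyp2c11, the main male-specific P450 of the rat, fell less at 200 µM than at 8 µM, by 1.41 against 2.47 (difference 1.05 ± 0.21, adjusted p = 0.0239). That call held in 23 of 33 alternative settings and was lost after median centring, without the variance trend and without each of 8 single arrays. Calr lost its call without the variance trend and without 24 h replicate 1 of 200 µM or 24 h replicate 5 of 8 µM. The glycerol channel Aqp9 lost it without 24 h replicate 5 of 8 µM, and after median centring Sdf2l1 alone was called. Cyp2c6v1 and Aqp9 were also higher in their time difference than at 8 µM, by 0.62 ± 0.11 and 0.74 ± 0.14 (adjusted p = 0.0111 and 0.0142). Csad, which makes taurine precursors, rose less at 200 µM (0.68 against 1.19), and Afm fell more (-1.32 against -0.70; adjusted p = 0.0142 and 0.00201). Without 48 h vehicle replicate 4, which enters only the spread of this fit, 12 genes were higher and 8 lower.

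**Figure D5:**
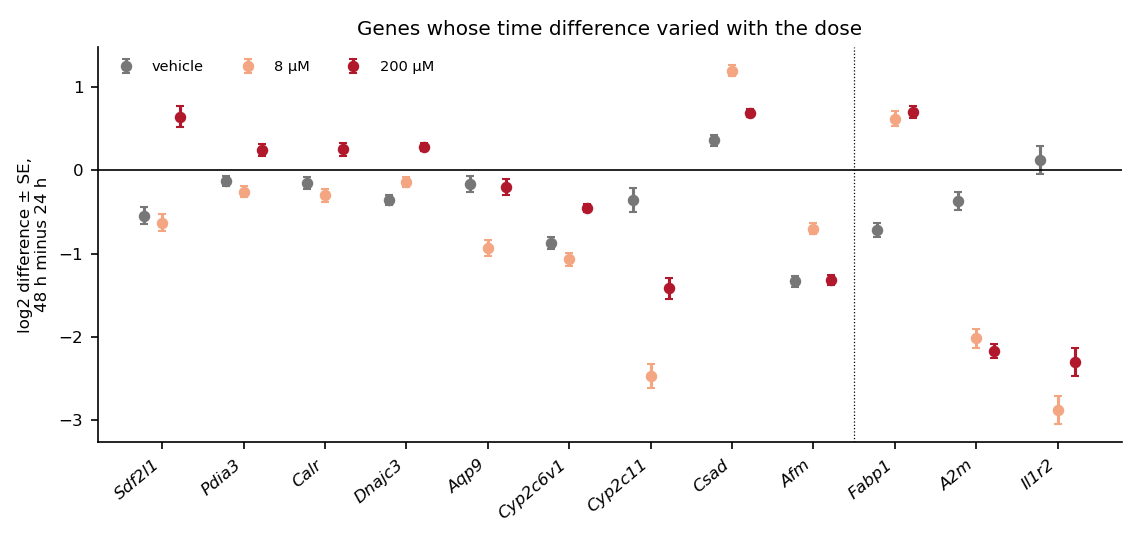
Log2 difference of 48 h minus 24 h (vertical axis; bars are SE) in vehicle (grey), 8 µM (orange) and 200 µM (red) wells for the 9 genes whose time difference at 200 µM differed from that at 8 µM (left of the dotted line) and for 3 that differed from vehicle (right of it). Sdf2l1, Pdia3, Calr and Dnajc3 are above 0 at 200 µM only.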

How the data were processed

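RNA of single wells was hybridized to an Affymetrix rat array. The authors deposited 1 intensity per probe set, computed with MAS5, per the submitters' processing notes; their version, scaling target and chip definition are not given in the sources used here. The 2% trimmed mean was between 1500.45 and 1500.7 on all 30 arrays, so arrays had been scaled already. Of 31099 probe sets, those with exactly 1 gene symbol and a signal above the 40th percentile (281.361) in at least 5 of 30 arrays were kept, and the brightest of each gene was used, giving 11545 genes. Signals were taken as log2(signal + 16) and fitted in limma 3.58.1 (R 4.3.3; variance trend, two-sided, Benjamini-Hochberg over all genes, threshold 0.05) on the 10 arrays at 200 µM. Contrasts with the time difference of vehicle or 8 µM wells used all 30 arrays; they share the 200 µM arrays with each other and with the first fit. SE is from the fit and SD is over wells. The fit was tested on simulated data.

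The members, the 44 gene lists and the motifs were chosen with earlier results of these data known. Genes were named by rule: the 15 largest rises and falls with groups that did not overlap, the 4 members of each list with the largest moderated statistic, the 5 largest each way of each contrast of time differences, and 13 usual PPARα targets; others were chosen after their values were seen. Of 963 listed genes 790 were tested, 111 lacked a probe set of their own and 62 were under the filter. Tried alternatives were quantile normalization, median centring, pseudocounts of 1 and 64, other filters, the mean of probe sets, single probe sets, blocking on runs of 6 arrays, no trend, array weights, a fold of 1.5, other sets of arrays and each array left out. Figures used matplotlib 3.10.9 (Python 3.11.15). Promoters are RefSeq windows of GRCr8.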

Additional observations from a re-analysis of the deposited data

Results flagged for a closer look

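In 22 of 362 groups of 5 wells checked (6.08%), 1 well lay farther from its nearest neighbour than 0.71 of the range of its group. Chance gives about 1 in 20 for independent groups, and groups of different genes on the same arrays are not independent. At 48 h the highest well stood away for Acsm2 (replicate 5, signal 6032), Aqp3 (replicate 5, signal 9639), Calr (replicate 5, signal 17012), Gpd1 (replicate 5, signal 47375), Nr1h4 (replicate 5, signal 5161), Pex19 (replicate 5, signal 3197), Pfkfb3 (replicate 1, signal 1549) and Usp18 (replicate 4, signal 3608). At 48 h the lowest well stood away for Anxa3 (replicate 5, signal 10404) and Cyp4a1 (replicate 5, signal 66144). Most of the 48 h wells that stood away were replicate 5, so these cases were not spread evenly over the arrays. At 24 h the highest well stood away for Acaca (replicate 5, signal 4709), Anxa3 (replicate 2, signal 8731), Cryab (replicate 4, signal 4193), Cyp3a2 (replicate 3, signal 10824), Krtcap3 (replicate 1, signal 119), Myl2 (replicate 5, signal 414), Nr1h4 (replicate 3, signal 5759), Slfn4 (replicate 5, signal 666) and Top2a (replicate 4, signal 402). At 24 h the lowest well stood away for Xbp1 (replicate 4, signal 11965). Of the RNA quality ratios, the 24 h replicate 2 well was highest for the 3′ to 5′ ratio of Gapdh (1.196) and of hexokinase (0.435).

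Of the genes named, 57 had a time difference at 200 µM that differed from that of vehicle wells (limma, adjusted p below 0.05), in log2 units of 200 µM minus vehicle. It was higher for Abhd5 (0.69), Acsl3 (0.51), Acsm2 (0.75), Aqp7 (0.69), Calr (0.41), Ctsd (0.37), Cyp2c6v1 (0.42), Cyp2e1 (0.67), Dbp (1.53), Ddit3 (0.82), Dnajc3 (0.63), Eno2 (1.14), Fabp1 (1.41), Fads1 (0.76), Fads2 (1.27), Gclc (0.48), Gldc (1.01), Gsta3 (0.44), Hmox1 (0.65), Mttp (0.45), Oat (1.02), Pdia3 (0.37), Pdia6 (0.45), Pnpla3 (1.11), Scd2 (1.25), Sdf2l1 (1.19), Slc30a10 (1.00), Spc24 (1.23) and Thrsp (0.72). It was lower for A2m (-1.80), Ahsg (-0.73), Apoa5 (-1.24), Apoc4 (-0.70), Bcl2l15 (-2.49), C3 (-0.58), Cav1 (-1.18), Ccn2 (-1.27), Cdkn1a (-0.32), Cryab (-1.29), Cyp1a2 (-0.90), Cyp2b3 (-0.63), Cyp2c11 (-1.05), Cyp4a1 (-0.69), Fgb (-0.42), Fn1 (-0.56), Hrg (-1.31), Il1r2 (-2.42), Lcat (-0.61), Lipe (-1.10), Npy (-2.17), Pdzk1ip1 (-2.46), Plg (-0.46), Poll (-1.80), S100a6 (-1.45), Serpina3n (-0.81), Vtn (-0.78) and Xbp1 (-0.43). The contrast with 8 µM, in log2 units of 200 µM minus 8 µM, was past the threshold for Afm (-0.62), Aqp9 (0.74), Calr (0.55), Csad (-0.51), Cyp2c11 (1.05), Cyp2c6v1 (0.62), Dnajc3 (0.42), Pdia3 (0.50) and Sdf2l1 (1.27).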

How the results depend on the processing

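The counts of genes higher and lower at 48 h stayed within 1.5 times of 988 and 833 under each alternative except the further condition of a fold of 1.5, where they were 183 and 166. Leaving out each array in turn gave 807 to 964 higher and 668 to 816 lower. The array numbers that fall in the same run of 6 did not pair the wells (correlations of deviations from -0.08 to 0.04), and with the run as a replicate block 869 genes were higher and 733 lower.

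For the contrast with vehicle (150 higher, 128 lower), median centring gave 20 and 8, array weights 249 and 279, a fold of 1.5 gave 45 and 67, and the 20 arrays of the contrast alone gave 87 higher. Quantile normalization gave 228 lower, and with 48 h vehicle replicate 4 left out as well, a setting chosen after seeing the data, 275 and 297. Leaving out each array gave 99 to 220 higher and 100 to 268 lower; the lowest count higher was without 48 h replicate 1 of 200 µM and the highest lower without 48 h vehicle replicate 4. The contrast with 8 µM (7 higher, 2 lower) gave 17 and 4 after quantile normalization, 1 higher and 0 lower after median centring (limma; at an unadjusted p below 0.05, 124 higher and 126 lower), 14 and 9 with array weights, 12 and 8 with its 20 arrays alone, 4 and 1 with a fold of 1.5, and 4 higher without the variance trend. Leaving out each array gave 3 to 12 higher and 2 to 8 lower: 4 higher without 24 h replicate 1 of 200 µM, 3 higher without 24 h replicate 5 of 8 µM, 4 lower without 48 h replicate 5 of 8 µM, and 12 and 8 without 48 h vehicle replicate 4. Median centring moves the bright 48 h vehicle replicate 4 array as a whole; the cause of the other differences was not tested.

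2 genes past the threshold turned direction. Cyp4a3 was 0.0011 after quantile normalization (adjusted p = 0.9895), and Hadha was -0.27 in the mean of its probe sets (adjusted p = 0.00112). Of the other values of named genes under an alternative, 4656 kept direction and side of the threshold, 380 were no longer past it and 45 became so. Another 5 turned sign without passing the threshold either way: Pdk4 after quantile normalization (0.0241), Nr3c1 and Cd247 in the mean of probe sets (-0.0183 and -0.1163), and Cd4 without 48 h replicate 1 (0.0095) or 2 (0.002) of 200 µM. Of the counts of called genes in the lists, 1695 stayed within 1.5 times and 329 did not. Arrays give no counts, so the number of wells limits the precision, and genes under the signal filter were not tested.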
